A study of Danio rerio with 8 samples.

Results

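The genes described here encode proteins of the mitochondrial ribosome, apart from mrps36, described below. They were taken as every entry of the deposited zebrafish count table whose name starts with mrpl or mrps followed by a digit. There were 74 such genes among 36109 entries, 46 of the large subunit (mrpl) and 28 of the small subunit (mrps), and all 74 had enough counts to be tested. Wild-type embryos of the AB strain of zebrafish (Danio rerio) were kept in 3 µM E64d, which enters cells and blocks cysteine proteases such as cathepsins, or in its solvent dimethyl sulfoxide (DMSO), between 1 and 24 hours post fertilization. In both groups the chorion was nicked and the medium was AFW-PTU. The labels state 0.5% DMSO for both groups, while diluting the 10 mM stock to 3 µM would by itself bring 0.03%. Each group had 4 replicates, each a pool of 7 whole embryos, so the spread between libraries is a spread between pools.

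Mitochondria carry their own ribosome, which translates only the few proteins encoded by mitochondrial DNA, all of them parts of the respiratory chain and the ATP synthase. Its rRNAs come from the mitochondrial genome, but each of its proteins is encoded in the nucleus, made in the cytosol and imported. Many of these proteins have a counterpart in bacterial ribosomes, and the others were added during the evolution of mitochondria. The large subunit joins amino acids at the peptidyl transferase centre and passes the new chain through an exit tunnel at the inner membrane, and the small subunit holds the mRNA and reads its codons. Defects in several of these genes cause mitochondrial disease in humans. Places in the ribosome are given below as known from mammalian and bacterial structures.

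Libraries held 29422983 to 37309883 counts. Markers of differentiated embryonic tissues (elavl3 of neurons, mylpfa of fast muscle, hbbe1.1 of erythrocytes, krt4 of skin, he1.1 of the hatching gland and cmlc1 of the heart) were all present in every library, and none passed the test between the groups. DMSO replicate 2 lay farthest out on the first principal component and had the lowest share of counts from the mitochondrial genome, 0.888% against 1.32% to 2.03% in the other 7 libraries. A lower level in RNA of whole embryos can come from fewer cells of a type or from less RNA per cell, which cannot be told apart here.

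Mitochondrial ribosomal protein mRNAs were lower in E64d embryos, by a modest amount and with no member going the other way past the threshold. Of the 74 genes 18 fell, none rose, and 56 did not pass (adjusted p under 0.05 by edgeR's quasi-likelihood test over all 22163 genes tested). That is 24.3% of the members lower, where 3.85% of all tested genes were lower, 2.28% were higher and 6.13% passed in either direction. Those 18 had log2 fold changes of −0.66 to −0.31, that is, levels 19.4% to 36.8% lower. No member passed upward at an unadjusted p under 0.05 either, nor with DESeq2 or limma-voom, while 46 were lower at that unadjusted p, as were 11.4% of all tested genes. The tools called 29 members lower with DESeq2 and 14 with limma-voom, where 6.1% and 3.6% of all genes were lower.

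The same direction ran through the members that did not pass. The median log2 fold change over the 74 genes was −0.29, where the median of all tested genes was 0.01, and 67 members had a value below 0, or 90.5% against 48.3% of all genes. In 35 members all 4 E64d values lay below all 4 DMSO values, a pattern held by 8.55% of all tested genes. The reverse pattern, held by 5.86% of all tested genes, occurred in no member. All 18 called genes are among the 67 and among the 35, so these counts are not those of uncalled members alone. Standard errors of the members' log2 fold changes ran from 0.08 to 0.24, with a median of 0.12. When the replicate number was added as a block, 30 members fell (of all genes 6.95% did) and none rose. With libraries scaled by their totals alone, 10 members fell (of all genes 2.25% did) and none rose, with a median of −0.20 beside a median of 0.10 over all genes, and 60 members had a value below 0. That scaling also turned the balance of calls over all genes, with 803 higher and 498 lower in place of 506 higher and 853 lower. With DESeq2's size factors in edgeR 17 members fell (3.69% of all genes), and without the filter on low counts 13 did (2.67% of all genes). With counts divided by 2, 16 members fell (4% of all genes), with mrpl38 and mrpl54 lost.

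**Figure D1:**
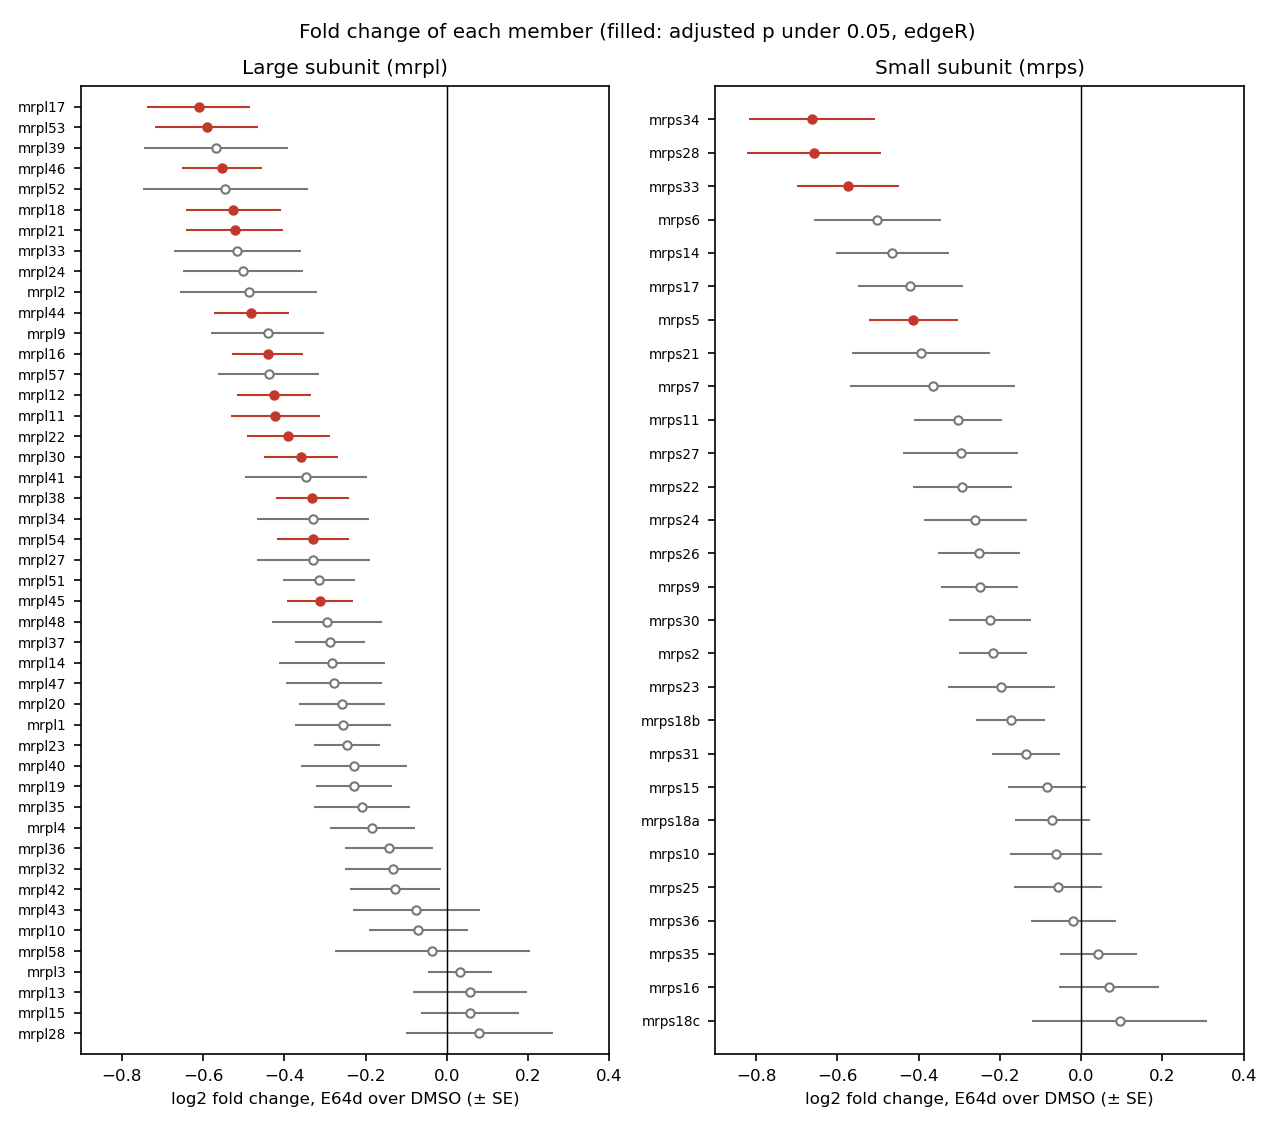
Log2 fold change of E64d over DMSO (horizontal axis, with standard error) for each of the 46 large-subunit genes (left) and 28 small-subunit genes (right). Filled red points passed an adjusted p under 0.05 by edgeR. The 18 filled points all lie between −0.66 and −0.31, and the 7 genes right of 0 lie close to it.

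The count of members called depended on which libraries were used, while their median stayed close. Without E64d replicates 1, 2, 3 or 4 the count was 8, 7, 8 and 3, and without DMSO replicates 1, 2, 3 or 4 it was 14, 12, 7 and 15, all of them lower. The share of all genes that was lower ran alongside, at 2.25%, 2.13%, 2.21% and 1.63% without E64d replicates 1 to 4, and at 3.7%, 3.3%, 2.21% and 3.66% without DMSO replicates 1 to 4. Over these 8 omissions the median of the 74 genes stayed between −0.32 and −0.25. The value nearest 0 came without DMSO replicate 2, when 70 of the members had a log2 fold change below 0. Only mrpl46 and mrpl44 passed in every omission.

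mrpl46 had the smallest p of the members. Its protein is specific to mitochondria and sits in the central protuberance, the knob of the large subunit that faces the small one. mrpl46 stood at 13.2, 15.2, 13.9 and 13.7 CPM (counts scaled to a fixed total by the TMM-adjusted library size) in E64d replicates 1 to 4, against 20.2, 22.3, 21.1 and 18.7 CPM in DMSO replicates 1 to 4. Every E64d library lay well below every DMSO library, and the log2 fold change was −0.55 ± 0.10 SE (adjusted p = 0.00532 by edgeR, and at most 0.0258 over the omissions).

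mrpl44, whose protein has the fold of an RNase III enzyme, stood at 27.1, 28.0, 25.8 and 24.5 CPM in E64d libraries, against 34.0, 41.3, 38.2 and 33.5 CPM in DMSO libraries. The groups did not overlap (log2 fold change −0.48 ± 0.09, adjusted p = 0.00854 by edgeR, at most 0.0425 over the omissions). mrpl16, the counterpart of a bacterial protein close to the peptidyl transferase centre, had 49.6, 47.1, 45.7 and 42.2 CPM in E64d libraries, against 59.5, 71.1, 63.6 and 56.5 CPM in DMSO libraries. It fell by 0.44 ± 0.09 on the log2 scale (adjusted p = 0.0103 by edgeR, and 0.0502 without E64d replicate 4).

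Of 9 members listed for the exit tunnel 4 fell and all 9 had values below 0. This grouping by place was made after the values were seen and does not cover every member. Of all 74 members 24.3% fell and 90.5% had values below 0, against 3.85% and 48.3% of all tested genes. Whether places in the ribosome differ was not tested. mrpl17, which lines the rim of the tunnel in bacteria, stood at 14.4, 15.2, 15.9 and 12.8 CPM in E64d libraries, against 18.2, 26.1, 24.4 and 20.3 CPM in DMSO libraries. Its log2 fold change of −0.61 ± 0.13 was the largest among called genes of the large subunit (adjusted p = 0.0139 by edgeR, and 0.0608 without E64d replicate 4). mrpl22, part of the tunnel wall, averaged 12.9 ± 0.802 CPM in E64d and 16.9 ± 1.11 CPM in DMSO (SD, n = 4 each), and mrpl45, which holds the ribosome at the inner membrane, averaged 22.4 ± 0.952 CPM in E64d and 27.8 ± 0.599 CPM in DMSO. Both passed narrowly (adjusted p = 0.0415 and 0.0399 by edgeR).

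Of 6 members listed for the central protuberance 3 fell, and all 6 had values below 0. Beside mrpl46 these were mrpl18, with 20.4, 19.3, 19.4 and 16.8 CPM in E64d libraries against 26.5, 31.1, 29.4 and 22.1 CPM in DMSO libraries, and mrpl38, which averaged 34.4 ± 1.73 CPM in E64d and 43.3 ± 4.36 CPM in DMSO (SD, n = 4 each). The log2 fold change of mrpl18 was −0.53 ± 0.12 (adjusted p = 0.019 by edgeR, with the call lost on leaving out E64d replicate 4 or DMSO replicate 3, at most 0.0788). That of mrpl38 was −0.33 ± 0.09 (adjusted p = 0.0467 by edgeR). These counts stand beside 24.3% lower and 90.5% below 0 among all 74 members. The list for this place is not complete. It leaves out mrpl58, which had a value near 0 (−0.04 ± 0.24, adjusted p = 0.958 by edgeR).

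Of 3 members listed for the stalk, a flexible arm that recruits translation factors, 2 fell and all 3 had values below 0. This grouping too was made after the values were seen, and whether the 3 genes differ was not tested. Among all 74 members 24.3% fell and 90.5% had values below 0, against 3.85% and 48.3% of all tested genes. mrpl12, the repeated tip protein of the stalk, stood at 47.1, 40.6, 44.2 and 43.5 CPM in E64d libraries, against 68.9, 54.4, 57.1 and 55.3 CPM in DMSO libraries (log2 fold change −0.43 ± 0.09, adjusted p = 0.0152 by edgeR). The highest of the E64d values lay below the lowest of the DMSO values, with DMSO replicate 1 the highest of all. Leaving out E64d replicate 2 or 4 ended the call (adjusted p of at most 0.0583), as did scaling by library totals alone (adjusted p = 0.06). mrpl11, at the base of the stalk, averaged 25.2 ± 1.84 CPM in E64d and 33.8 ± 5.12 CPM in DMSO (−0.42 ± 0.11, adjusted p = 0.0413 by edgeR). mrpl10, which anchors mrpl12, stood at 14.1, 13.9, 16.1 and 12.9 CPM in E64d libraries, against 14.2, 14.6, 17.8 and 13.2 CPM in DMSO libraries. Its groups overlapped (−0.07 ± 0.12, adjusted p = 0.812 by edgeR, and 0.016 on the log2 scale with library totals alone or 0.023 without DMSO replicate 3).

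**Figure D2:**
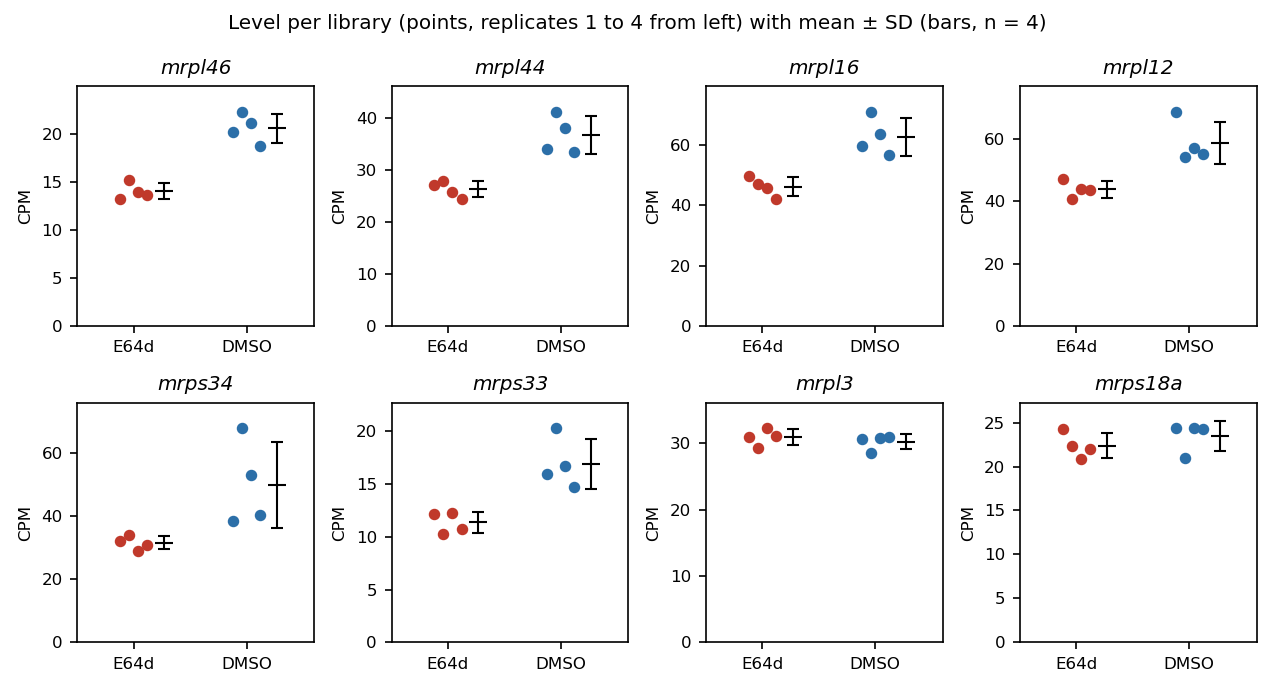
Level in CPM (vertical axes from 0) of 8 members in each of 4 E64d (red) and 4 DMSO (blue) libraries, replicates 1 to 4 from left to right, with mean ± SD in black. The groups separate in mrpl46, mrpl44, mrpl16, mrpl12, mrps34 and mrps33 and overlap in mrpl3 and mrps18a, and DMSO replicate 2 is the highest in mrpl46, mrpl44, mrpl16, mrps34 and mrps33.

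The remaining called genes of the large subunit were mrpl53, mrpl21, mrpl30 and mrpl54. mrpl53, a protein found only in mitochondria, stood at 7.58, 6.65, 8.05 and 7.94 CPM in E64d libraries, against 10.5, 12.5, 11.9 and 10.6 CPM in DMSO libraries (−0.59 ± 0.13, adjusted p = 0.0157 by edgeR, and up to 0.0523 without E64d replicate 2 or DMSO replicate 3). mrpl21, which has a bacterial counterpart, averaged 18.0 ± 1.01 CPM in E64d and 25.9 ± 4.23 CPM in DMSO (SD, n = 4 each; −0.52 ± 0.12, adjusted p = 0.0223 by edgeR). Leaving out E64d replicate 1, 3 or 4 or DMSO replicate 3 ended the call of mrpl21 (adjusted p of at most 0.0779). mrpl30 and mrpl54 fell by 0.36 ± 0.09 and 0.33 ± 0.09 on the log2 scale (adjusted p = 0.0374 and 0.0478 by edgeR). mrpl11, mrpl22, mrpl30, mrpl38, mrpl45 and mrpl54 were named beyond the rule for named genes, after their values were seen. Each of these 6 was lost in 7 or 8 of the 8 omissions (adjusted p up to 0.147), and none of them passed with library totals alone. mrpl11 and mrpl38 passed only on leaving out DMSO replicate 4, mrpl22 only on leaving out DMSO replicate 2 and mrpl30 only on leaving out DMSO replicate 1, while mrpl45 and mrpl54 passed in no omission.

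In the small subunit 4 of 28 genes fell (14.3%, where 3.85% of all tested genes did). Of the 28 genes 89.3% had values below 0, against 48.3% of all tested genes. By place, in the grouping made after the values were seen, none of 5 members listed for the head fell and all 5 had values below 0. None of 5 listed for the platform fell, with 4 values below 0. Of 4 listed for the body, MRPS12 counted, 1 fell, with 3 values below 0. These lists do not cover the whole small subunit. They leave out mrps28, mrps33 and mrps34, which fell, so they do not show where in the subunit the called genes lie. mrps34, a mitochondria-specific protein whose loss destabilises the small subunit in humans, stood at 32.1, 34.1, 29.0 and 31.0 CPM in E64d libraries, against 38.5, 67.8, 53.1 and 40.2 CPM in DMSO libraries. The E64d values were close together and all below the widely spread DMSO values, of which replicate 2 was the highest. The log2 fold change was −0.66 ± 0.15 (adjusted p = 0.0246 by edgeR), and leaving out E64d replicate 1, 3 or 4 or DMSO replicate 3 ended the call (adjusted p of at most 0.0861).

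mrps33, another mitochondria-specific protein, stood at 12.2, 10.3, 12.3 and 10.7 CPM in E64d libraries, against 16.0, 20.3, 16.7 and 14.7 CPM in DMSO libraries (−0.57 ± 0.13, adjusted p = 0.0173 by edgeR, lost on leaving out E64d replicate 2 or 4, at most 0.0696). The other called genes, named after their values were seen, have bacterial counterparts. mrps28 averaged 11.9 ± 0.816 CPM in E64d and 18.8 ± 5.28 CPM in DMSO, and mrps5 averaged 29.4 ± 2.90 CPM in E64d and 39.1 ± 5.25 CPM in DMSO (SD, n = 4 each). They fell by 0.66 ± 0.17 and 0.41 ± 0.11 on the log2 scale (adjusted p = 0.0346 and 0.0425 by edgeR). Without E64d replicates 1, 2, 3 or 4 or DMSO replicate 3 mrps28 did not pass (adjusted p up to 0.1), and neither gene passed with limma-voom. Without DMSO replicate 2 the log2 fold change of mrps28 was −0.44. mrps5 was lost in 7 of the 8 omissions, passing only without DMSO replicate 1, and did not pass with library totals alone.

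The uncalled members with the largest changes, a pair from each subunit, were mrpl39, mrpl52, mrps6 and mrps14. mrpl39 stood at 34.5, 33.3, 24.9 and 27.1 CPM in E64d libraries, against 38.3, 64.8, 37.7 and 36.8 CPM in DMSO libraries, where replicate 2 lay far above the rest (log2 fold change −0.57 ± 0.18, adjusted p = 0.0819 by edgeR). mrps6, the counterpart of a protein of the bacterial platform, had 22.6, 22.9, 21.7 and 21.4 CPM in E64d libraries, against 27.9, 44.8, 24.9 and 27.7 CPM in DMSO libraries (−0.50 ± 0.16, adjusted p = 0.0833 by edgeR). In both genes the groups did not overlap. mrpl52 (−0.54 ± 0.20, adjusted p = 0.142) and mrps14, of the small subunit head (−0.46 ± 0.14, adjusted p = 0.0737), were alike in this respect by edgeR. With the replicate number as a block these 4 genes passed, mrpl39 with an adjusted p = 0.00711, mrps6 with 0.0219, mrpl52 with 0.0458 and mrps14 with 0.0223 by edgeR. Without DMSO replicate 2 the log2 fold changes were −0.33 for mrpl39, −0.32 for mrpl52, −0.27 for mrps6 and −0.37 for mrps14, and none of the 4 passed.

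Other members had values near 0. mrpl3, which binds early in the assembly of the large subunit in bacteria, stood at 30.9, 29.3, 32.3 and 31.1 CPM in E64d libraries, against 30.7, 28.5, 30.8 and 30.9 CPM in DMSO libraries. Its groups overlapped, with a narrow error (0.03 ± 0.08, adjusted p = 0.877 by edgeR). mrpl58, a peptidyl-tRNA hydrolase that became part of the ribosome, averaged 4.11 ± 1.00 CPM in E64d and 4.22 ± 1.11 CPM in DMSO (−0.04 ± 0.24, adjusted p = 0.958 by edgeR), the widest error of the members. Its value was 0.058 with library totals alone, 0.096 without E64d replicate 1 and 0.15 without DMSO replicate 2. The 7 members with a value above 0 were mrpl3, mrpl13, mrpl15, mrpl28, mrps16, mrps18c and mrps35 (named for this count), and the highest of them was 0.09 in mrps18c.

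The 3 related genes mrps18a, mrps18b and mrps18c, whose proteins descend from a single bacterial one and occupy different places, did not pass. mrps18a, which sits in the large subunit despite its name, averaged 22.4 ± 1.44 CPM in E64d and 23.5 ± 1.70 CPM in DMSO (SD, n = 4 each). mrps18b averaged 21.8 ± 0.939 CPM in E64d and 24.6 ± 0.992 CPM in DMSO, and mrps18c 8.65 ± 1.56 CPM in E64d and 8.10 ± 2.37 CPM in DMSO. The log2 fold changes were −0.07 ± 0.09, −0.17 ± 0.08 and 0.09 ± 0.22 (adjusted p = 0.745, 0.279 and 0.866 by edgeR). In mrps18b alone of the 3 the groups did not overlap. The sign turned for mrps18a with library totals alone (0.013) and for mrps18c without E64d replicate 1 (−0.035) or DMSO replicate 2 (−0.086). mrps30, also a large-subunit protein, stood at −0.22 ± 0.10 (adjusted p = 0.239), or −0.14 without DMSO replicate 2. mrps22, a mitochondria-specific gene linked to human disease, stood at −0.29 ± 0.12 (adjusted p = 0.197), and mrps7, which starts the assembly of the head in bacteria, stood at −0.37 ± 0.20 (adjusted p = 0.358), with 2.83 ± 0.356 CPM in E64d and 3.64 ± 0.495 CPM in DMSO.

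The name rule included mrps36, now called kgd4 and known as a subunit of the 2-oxoglutarate dehydrogenase complex rather than of the ribosome. This gene stays counted among the members and in the small subunit throughout. It averaged 25.4 ± 2.71 CPM in E64d and 25.7 ± 2.41 CPM in DMSO (SD, n = 4 each), with a log2 fold change of −0.02 ± 0.11 (adjusted p = 0.949 by edgeR) that was 0.064 with library totals alone. The rule missed MRPL49 and MRPS12, which the table writes in capitals. MRPS12, the counterpart of the protein at the bacterial decoding centre, stood at 13.5, 14.9, 18.1 and 17.2 CPM in E64d libraries, against 19.3, 19.1, 20.2 and 19.2 CPM in DMSO libraries (−0.29 ± 0.11, adjusted p = 0.152 by edgeR). MRPL49 averaged 11.4 ± 1.55 CPM in E64d and 13.1 ± 1.41 CPM in DMSO (−0.20 ± 0.13, adjusted p = 0.446 by edgeR). Neither passed, and both leaned the same way as the members.

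Set side by side, the large subunit had 14 of 46 genes lower (30.4%) with a median log2 fold change of −0.32, and the small subunit had 4 of 28 lower (14.3%) with a median of −0.25. Values below 0 made up 42 of 46 in the large subunit and 25 of 28 in the small one. Over all tested genes 3.85% were lower and 48.3% had values below 0. Moving mrps18a and mrps30 to the large subunit, where they sit in mammals, gave 14 of 48 with a median of −0.31 and 4 of 26 with a median of −0.26. The 26 still include mrps36. Whether the subunits differ was not tested. Summed levels of the large subunit were 955, 947, 944 and 929 CPM in E64d libraries, against 1153, 1295, 1147 and 1123 CPM in DMSO libraries. Those of the small subunit were 595, 570, 562 and 556 CPM in E64d libraries, against 660, 741, 663 and 666 CPM in DMSO libraries. Neither sum overlapped between the groups. The large-subunit sum was 19.97% lower in E64d and the small-subunit sum 16.4% lower, or 17.3% and 13.9% without DMSO replicate 2. On the same scale the sum over all tested genes was 5.82% lower in E64d, or 4.38% without that library. That last sum follows from the TMM scaling factors alone and is not a measured fall. The median log2 fold change of all tested genes was 0.01.

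The balance between the 2 sums moved little. The large-subunit sum was 1.61, 1.66, 1.68 and 1.67 times the small-subunit sum in E64d libraries, and 1.75, 1.75, 1.73 and 1.68 times in DMSO libraries. The highest E64d ratio lay just below the lowest DMSO ratio, and the means were 1.65 ± 0.0325 in E64d and 1.73 ± 0.0299 in DMSO (SD, n = 4 each). The size of the ratio depends on the number and length of the genes and is read only between libraries.

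**Figure D3:**
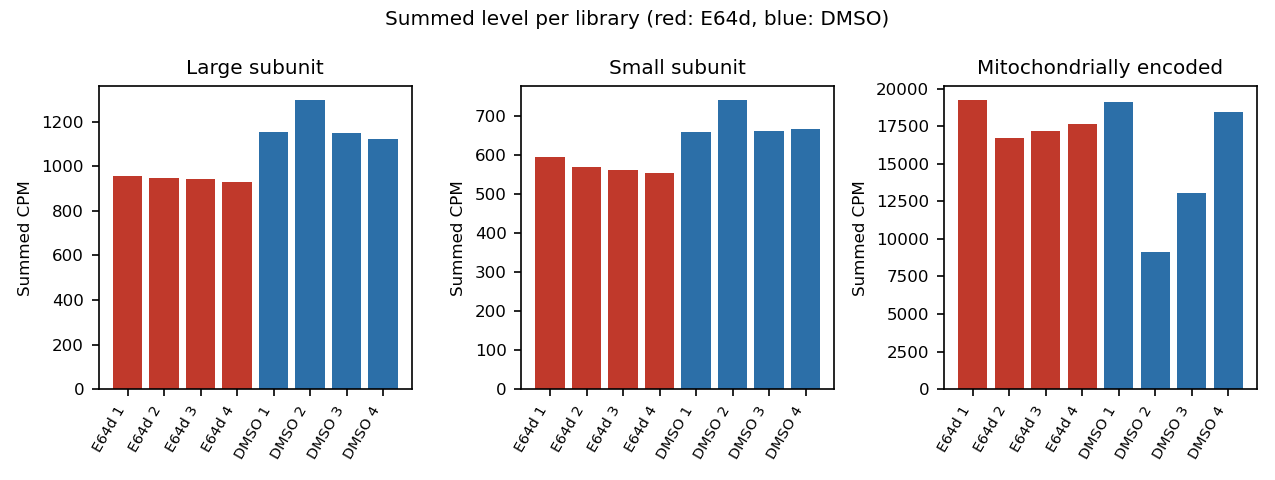
Summed CPM (vertical axes from 0) of the large-subunit genes, the small-subunit genes and the 12 genes of mitochondrial DNA that the table names. Each bar is 1 library, E64d in red and DMSO in blue. All 4 red bars are lower than all 4 blue bars for both subunits, while for mitochondrially encoded genes DMSO replicates 2 and 3 are the lowest bars.

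The members were also split by evolutionary origin and by level, with no test of either split. The counts below stand beside 3.85% lower and 48.3% below 0 among all tested genes. Of 44 members listed as having a bacterial counterpart 10 fell, with a median log2 fold change of −0.29. Of the other 30 members, specific to mitochondria or not classed, 8 fell, also with a median of −0.29. The 17 of these in the large subunit all had values below 0, and 6 were called. The 13 in the small subunit, which include mrps18a, mrps18b and mrps36, had a median of −0.20, and 2 were called. The 37 members with the higher mean CPM had a median of −0.30 and 11 called, and the 37 with the lower mean CPM had a median of −0.29 and 7 called, with median standard errors of 0.10 and 0.13.

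Each library was also set against the DMSO mean. Taking each gene relative to its mean over the DMSO libraries, the median member stood at −0.31, −0.27, −0.29 and −0.30 on the log2 scale in E64d replicates 1 to 4, and at −0.03, 0.10, −0.01 and −0.04 in DMSO replicates 1 to 4. In the E64d libraries 62, 67, 66 and 68 of the 74 members lay below their DMSO mean. DMSO replicate 2 held the highest DMSO value of 40 members, while the other 3 DMSO libraries held that of 9 to 14 each. Between libraries of the same number, E64d was the lower one in 64, 62, 61 and 70 members for numbers 1 to 4. Of all tested genes with counts in both libraries, E64d was the lower one in 49.5%, 49.1%, 49.6% and 51.0% for the same numbers.

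**Figure D4:**
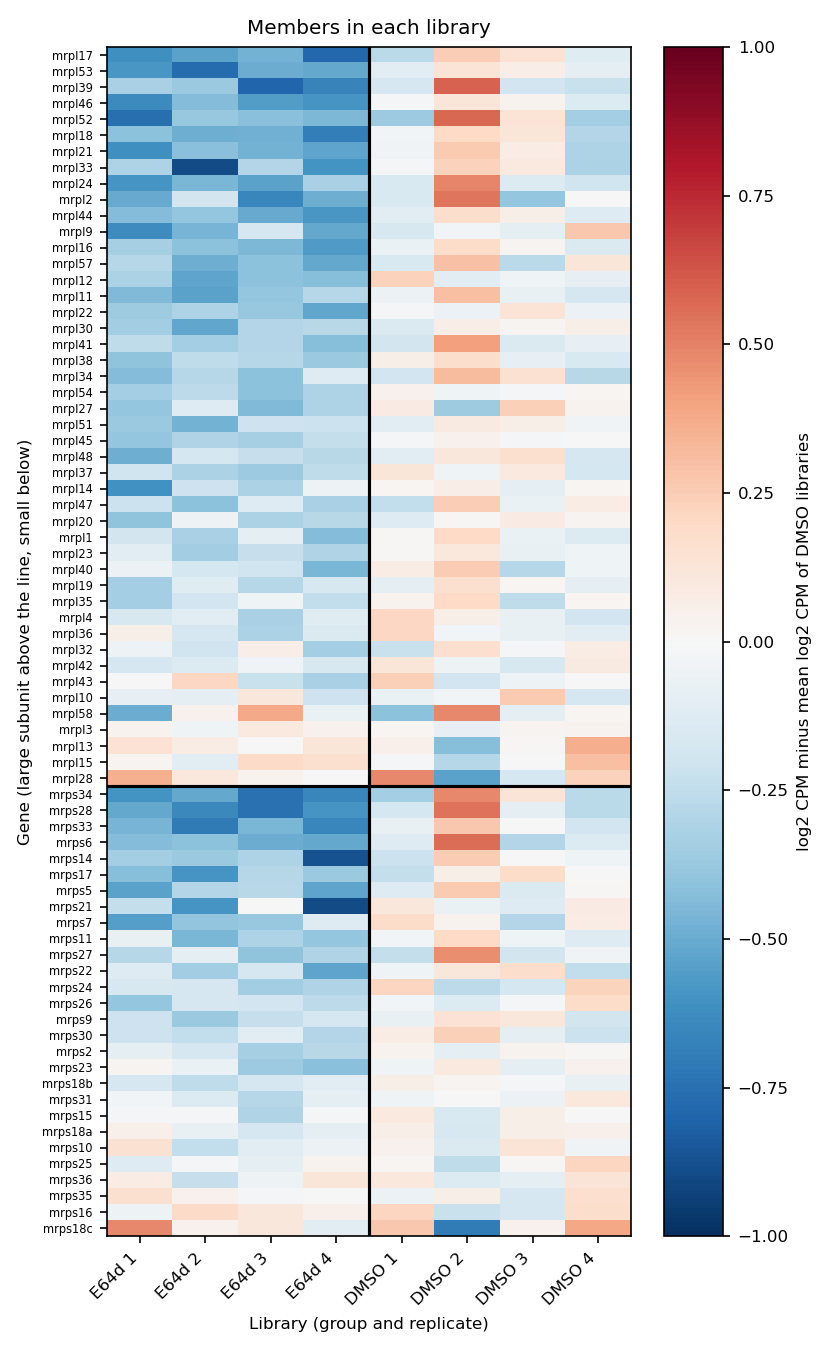
Level of each of the 74 members (rows, ordered by fold change within the large and the small subunit) in each library (columns, E64d left), as log2 CPM minus the gene's mean log2 CPM over DMSO libraries. Blue is lower and red higher. The E64d columns are blue through most rows of both subunits, and the DMSO replicate 2 column is red in many rows, with 40 members at their highest DMSO value there.

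Mitoribosomal proteins that carry other names moved the same way. All 5 such genes had values below 0, with a median of −0.32, and 2 fell. Of all tested genes 48.3% had values below 0 and 3.85% fell. aurkaip1 stood at 24.3, 23.3, 25.1 and 20.1 CPM in E64d libraries, against 37.7, 29.4, 27.6 and 31.4 CPM in DMSO libraries (−0.44 ± 0.11, adjusted p = 0.0369 by edgeR, kept only on leaving out DMSO replicate 2 or 3). ptcd3, an RNA-binding protein near the entry of the mRNA, also fell (−0.32 ± 0.09, adjusted p = 0.0477, lost in all 8 omissions). dap3, a GTP-binding protein of the small subunit, averaged 39.6 ± 3.98 CPM in E64d and 47.6 ± 4.19 CPM in DMSO (−0.27 ± 0.09, adjusted p = 0.126 by edgeR, and 0.0292 with the replicate block). gadd45gip1 of the large subunit stood at −0.42 ± 0.13 (adjusted p = 0.0719 by edgeR, and 0.0376 with the replicate block) and chchd1 at −0.26 ± 0.10 (adjusted p = 0.137). ptcd3, gadd45gip1 and chchd1 were named after their values were seen, and none of the 5 passed with library totals alone.

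The rest of the mitochondrial translation apparatus had smaller shares of called genes than the 74 members together, of which 24.3% fell. Of all tested genes 3.85% fell. Of 16 translation factors 3 fell (18.75%, above the 14.3% of the small subunit), with a median log2 fold change of −0.15. Over the omissions 2 to 3 translation factors and 3 to 15 members fell, so this order of shares depends on the libraries used. The elongation factor genes gfm1 and tufm were among the 3 translation factors that fell. gfm1 stood at 32.6, 34.4, 34.9 and 32.7 CPM in E64d libraries, against 46.0, 53.2, 46.4 and 42.0 CPM in DMSO libraries (−0.48 ± 0.09, adjusted p = 0.00538 by edgeR). tufm, named after its values were seen, averaged 88.0 ± 6.36 CPM in E64d and 119 ± 10.6 CPM in DMSO (SD, n = 4 each; −0.43 ± 0.08). Both passed in all 8 omissions. Of 22 factors for the assembly of the mitochondrial ribosome 1 fell, the RNA helicase gene dhx30 (−0.48 ± 0.11, adjusted p = 0.02 by edgeR, lost on leaving out E64d replicate 1 or 2 or DMSO replicate 3, at most 0.0652). That 1 of 22 is 4.55%, close to the 3.85% of all tested genes. The median of that list was −0.10, and −0.01 with library totals alone.

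Of 17 mitochondrial tRNA synthetase genes 2 fell (11.8%, where 3.85% of all tested genes did), with a median of −0.26. lars2, which charges tRNA with leucine, averaged 13.6 ± 2.25 CPM in E64d and 19.7 ± 2.02 CPM in DMSO (−0.53 ± 0.13, adjusted p = 0.0305 by edgeR, kept only on leaving out E64d replicate 2 or DMSO replicate 1). Of 17 genes for transcription of mitochondrial DNA and processing of its RNA 3 fell (17.6%), with a median of −0.19. Among these 3 was hsd17b10, a subunit of mitochondrial RNase P (−0.40 ± 0.10, adjusted p = 0.0323 by edgeR, kept only on leaving out E64d replicate 3 or DMSO replicate 4). With library totals alone none of dhx30, lars2 and hsd17b10 passed. None of 13 regulators of nuclear genes for mitochondria passed with edgeR (4 were lower at an unadjusted p under 0.05, 1 with DESeq2, none with limma-voom and 2 with the replicate block, where 11.4% of all tested genes were lower at that unadjusted p).

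Other nuclear genes for mitochondria were lower too. Of 79 tested nuclear genes for the respiratory chain and ATP synthase 25 fell and none rose, with a median of −0.23. That is 31.6% of the list, where 3.85% of all tested genes fell. The ATP synthase gene atp5f1b stood at 824, 830, 842 and 807 CPM in E64d libraries, against 1056, 1150, 1126 and 1024 CPM in DMSO libraries (−0.40 ± 0.06, adjusted p = 0.002 by edgeR). Of 23 genes for import into mitochondria 9 fell (39.1%), with a median of −0.33. timm10, a chaperone between the membranes, stood at 23.0, 22.8, 24.0 and 23.5 CPM in E64d libraries, against 32.8, 49.2, 38.8 and 37.5 CPM in DMSO libraries (−0.76 ± 0.11, adjusted p = 0.00141 by edgeR). The respiratory chain count was 10 and the import count 5 with library totals alone, and over the omissions the counts ran from 6 to 24 and from 5 to 9. The share of all tested genes that fell moved too, to 2.25% with library totals alone and 1.63% to 3.7% over the omissions. The lowest respiratory chain count, like that of the members, came on leaving out E64d replicate 4, and the import count was lowest on leaving out E64d replicate 3 or 4.

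The list of mitochondrial chaperones and proteases went in both directions. It had 3 higher and 1 lower of 16 tested genes, beside 2.28% higher and 3.85% lower of all tested genes. It was drawn up to include atf5a and atf5b, which are neither chaperones nor proteases, and atf5a was among the 3 higher. atf5a, a transcription factor tied to mitochondrial stress in mammals, stood at 17.8, 15.7, 17.0 and 18.0 CPM in E64d libraries, against 7.53, 7.20, 8.78 and 8.22 CPM in DMSO libraries (1.11 ± 0.11, adjusted p = 6.2e-05 by edgeR). The chaperonin gene hspd1 averaged 281 ± 27.5 CPM in E64d and 422 ± 69.5 CPM in DMSO (SD, n = 4 each; −0.58 ± 0.11, adjusted p = 0.00824 by edgeR).

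The mRNAs that mitochondrial ribosomes translate did not show the members' fall, though their errors were wider. All 12 genes of the mitochondrial genome that the table names had log2 fold changes above 0, with a median of 0.26, in the comparison of all 8 libraries. Without DMSO replicate 2 the median was 0.06 and 2 of the 12 had values below 0, mt-nd6 and mt-nd3 (named for this count). With all libraries the standard errors of the 12 log2 fold changes ran from 0.11 to 0.30. Their median was 0.24, against 0.12 for the members. None of the 12 passed with edgeR, DESeq2 or limma-voom or at an unadjusted p under 0.05 with all libraries. With the replicate block 1 rose, mt-cyb (adjusted p = 0.049 by edgeR). Their summed level was 19210, 16725, 17210 and 17654 CPM in E64d libraries, against 19116, 9128, 13028 and 18472 CPM in DMSO libraries. The groups overlapped, and the 2 low DMSO libraries, 2 and 3, set the lower DMSO mean. Without DMSO replicate 2 the sum in E64d was 4.91% higher than in DMSO, in place of 18.5%.

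Proteins of the cytosolic ribosome showed a smaller shift. Of 83 genes matched by name 1 fell, rpl7l1 (−0.29 ± 0.08, adjusted p = 0.0446 by edgeR, lost in all 8 omissions and with library totals alone). Its name marks a gene similar to rpl7, so it may not encode a protein of the ribosome, and no other gene of the list passed. The 1 called gene is 1.2% of the list, where 3.85% of all tested genes fell. At an unadjusted p under 0.05 by edgeR 35 of the 83 were lower, as were 11.4% of all tested genes. In 22 of the 83 (26.5%) all 4 E64d values lay below all 4 DMSO values, against 8.55% of all tested genes. Of the 83 genes 73 (88.0%) had values below 0, against 48.3% of all tested genes. Their median was −0.15, or −0.06 with library totals alone. With the replicate block 19 fell and none rose, where 6.95% of all genes fell. Their summed level was 11.5% lower in E64d than in DMSO, and 5.74% lower without DMSO replicate 2. The sum for mitochondrial ribosomal proteins was 18.6% lower, and 16.0% lower without that library. The sum over all tested genes was 5.82% lower, and 4.38% lower without that library. The sum over all tested genes follows from the TMM scaling factors alone, so it is not a measured fall to set the cytosolic sum against. DMSO replicate 2 had the highest sum of cytosolic ribosomal proteins, 95669 CPM, against 70080 to 73969 CPM in E64d libraries and 73586 to 79104 CPM in the other DMSO libraries.

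**Figure D5:**
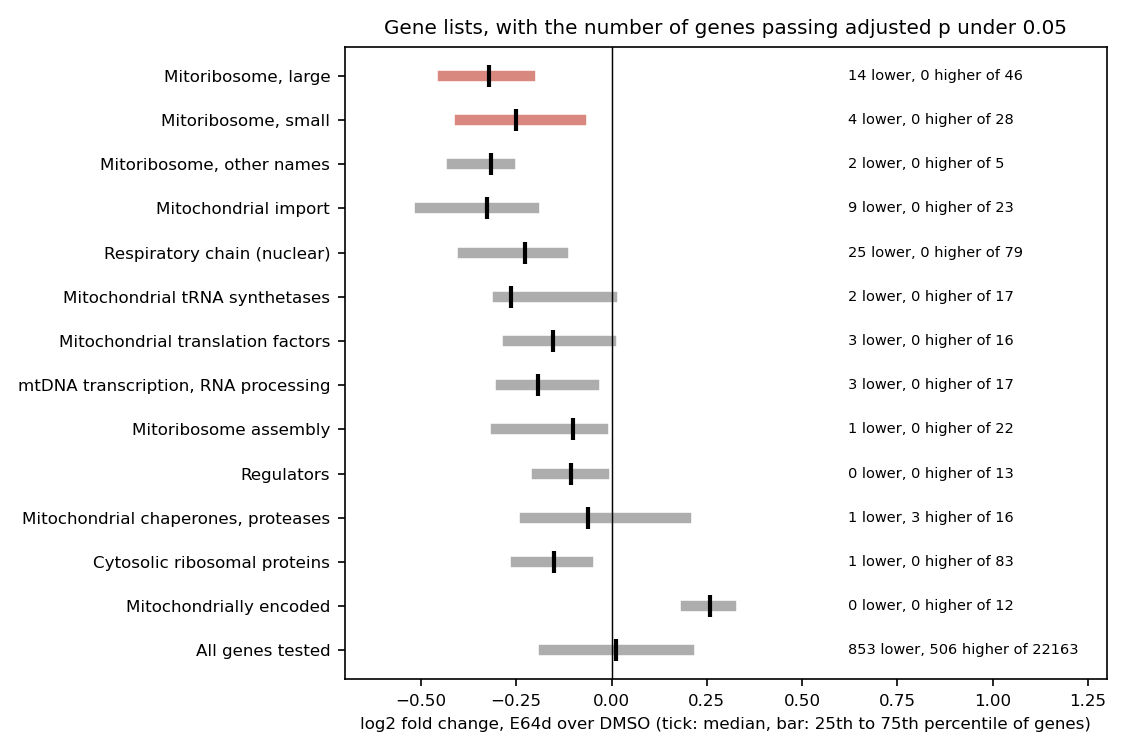
Log2 fold change of E64d over DMSO for the genes of each list (tick for the median, bar from the 25th to the 75th percentile of genes), with the number that passed in each direction. The medians are −0.32 for the large and −0.25 for the small subunit (red), −0.33 for import and 0.26 for mitochondrially encoded genes (0.06 without DMSO replicate 2), and the median of all genes tested is 0.01.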

How the data were processed

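RNA of 8 pools of embryos was sequenced. Raw counts of reads per gene are what the authors deposited, in 8 columns named for the samples, beside 6 unnamed columns that were not used. Versions in the submitters' processing notes are GRCz11 for the genome build, and featureCounts 2.0.6, STAR 2.7.10b, Trim Galore 0.6.10 and FastQC 0.12.1 for the software. No source used here gives the annotation or strand setting, so reads of overlapping genes cannot be told apart. In RefSeq's table of GRCz12tu, used only for names and neighbours, 73 of the 74 members matched by symbol, and 23 overlapped another gene, 5 of them called (mrpl11, mrpl16, mrpl22, mrpl45 and mrpl53). Of counts from 1 to 20, 75.9% to 80.7% per library were even, as when both mates of a pair are counted. Members had 76 to 3135 counts per library.

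Genes were kept by filterByExpr, scaled by TMM and compared with edgeR 4.0.16 in R 4.3.3 (quasi-likelihood test, Benjamini-Hochberg adjustment over 22163 genes, threshold 0.05). The procedure was also tried on simulated data with independent libraries and fold changes larger than those of most members. That trial does not show how well changes of the members' size are found. Standard errors derive from the test statistic. Members and lists were chosen with earlier results of these data known. Named members were the 10 called genes with the smallest p, the 2 uncalled genes per subunit with the largest change, and landmarks by role. From each other list the called gene with the smallest p in each direction was named, and dap3. A further part of the rule, on levels per length, was not applied because no gene lengths were used, and levels of different genes are not ranked. Deviations from group means correlated across genes by 0.122 to 0.413 between libraries of the same number and by −0.239 to 0.089 between other pairs. By this check the numbers 1 to 3 pair libraries (0.306 to 0.413), although no label explains them. Number 4 does so only weakly, at 0.122 against 0.089 for E64d replicate 4 with DMSO replicate 3. The calls given are those of the unpaired test, with the replicate block as an alternative. The omissions were also run unpaired, so they do not use any pairing. Whether pools come from separate clutches is not given, so p-values measure the spread between pools. Alternatives were scaling by library totals or DESeq2 size factors, DESeq2 1.42.0, limma-voom (limma 3.58.1), no filter, counts divided by 2, the replicate block, omission of each library and subunits by structure. Counting the 2 capitalised names was added after seeing the data.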

Additional observations from a re-analysis of the deposited data

Results flagged for a closer look

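In groups of 4 libraries, a library was picked out when its gap to the nearest other took up more of the group's range than Dixon's critical value. Of 102 such groups examined, 9 were picked out, where chance gives about 1 in 20. Most were DMSO replicate 2. It was high for mrpl39 (64.8 CPM, others 36.8 to 38.3) and mrps6 (44.8 CPM, others 24.9 to 27.9). It was low for mrpl3 (28.5 CPM, others 30.7 to 30.9) and mrps18a (20.9 CPM, others 24.3 to 24.4). The summed level of all members was 2036 CPM there, against 1789 to 1813 CPM in the other DMSO libraries, and that of the small subunit 741 CPM, against 660 to 666 CPM. mrps14 was low in E64d replicate 4 (11.9 CPM, others 16.9 to 17.6), dhx30 was low in DMSO replicate 1 (16.7 CPM, others from 19.6 CPM upward), and MRPS12 was high in DMSO replicate 3 (20.2 CPM, others 19.1 to 19.3). The causes were not tested.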

How the results depend on the processing

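The alternatives run all left the medians of both subunits below 0, and counting the 2 capitalised names or moving mrps18a and mrps30 changed no count of calls. With library totals alone they were −0.23 for the large and −0.16 for the small subunit, and over the omissions of 1 library they ran from −0.33 to −0.27 and from −0.27 to −0.21. Members called numbered 18, and 10 with library totals alone, 29 with DESeq2, 30 with the replicate block and 3 to 15 over the omissions. Of the large subunit 14 were called, and 7 with library totals alone, 22 with DESeq2, 9 without a filter on low counts, 23 with the replicate block and 3 to 12 over the omissions. Of the small subunit 4 were called, and 7 with DESeq2, 2 with limma-voom, 7 with the replicate block and 0 to 5 over the omissions. All genes called numbered 1359, and 2207 with DESeq2, 2580 with the replicate block and 655 to 1396 over the omissions. In the other lists 50 genes were called, 21 with library totals alone, 89 with the replicate block and 18 to 50 over the omissions. All 18 called members passed with DESeq2 and with the replicate block. Of the 74 members 12 changed sign under some setting, none of them called. With library totals alone 7 did, leaving 60 in place of 67 below 0, and without DMSO replicate 2 there were 5. Among the named genes, with library totals alone mrpl10 stood at 0.016, mrpl58 at 0.058 and mrps18a at 0.013, and over the omissions mrpl10 ran from −0.14 to 0.023, mrpl58 from −0.19 to 0.15 and mrps18c from −0.086 to 0.22. With library totals alone the median of all genes was 0.10 in place of 0.01. Omissions leave fewer libraries to estimate the spread, and the causes of the other differences were not tested. Over the named genes and these settings 546 values kept their direction and side of the threshold, 139 fell short of it, 12 newly passed and 8 changed sign.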
